A study of Mus musculus with 21 samples.

Results

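The TAM receptors Axl, Mertk and Tyro3 and their ligands Gas6 and Pros1 were followed across B cells sorted from 3 mouse tissues. These 5 of the 23337 genes in the deposited count table were taken by symbol; Axl was chosen by its CPM in the 9 groups, already known to differ widely, and the other 4 as its relatives and ligands. Axl was at 213 ± 19.9 CPM (SD, n = 3) in HEL pos B cells of the mesenteric lymph nodes (mLN) and close to the detection limit in HEL pos B cells of the spleen, at 1.11 ± 0.333 CPM (SD, n = 3). CPM are counts scaled to 1e+06 per library, with totals adjusted by the TMM method. Mertk, Tyro3, Gas6 and Pros1 together gave 151 counts in all 21 libraries, against 10887 counts of Axl.

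TAM receptors are receptor tyrosine kinases whose ligands, Gas6 and protein S (the product of Pros1), bridge them to phosphatidylserine exposed on dying cells. In macrophages and dendritic cells they drive the uptake of apoptotic cells and dampen responses to cytokines and Toll-like receptors through SOCS proteins. They are best known in these phagocytes and not in resting B cells. Gas6 and protein S need vitamin K for their carboxylation, and the ectodomains of Axl and Mertk can be shed from the surface by the proteases ADAM10 and ADAM17.

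The study sequenced RNA of self-reactive B cells of the gut, here those of mLN and Peyer's patches (PP, follicles in the intestinal wall), and of spleen, and of comparison B cells from C57BL/6 mice aged 8 to 12 weeks. The labels call the cells HEL neg, HEL pos or BCL2 HEL pos. They do not spell out the alleles behind these names or the promoter of a BCL2 transgene. In each tissue, HEL neg cells had 1 pooled library, while HEL pos cells had 3 (Pool, 392 and 399) and so did BCL2 HEL pos cells (922, 926 and 950). The number of mice in a pool is not given, nor whether a numbered library is 1 mouse, so p-values measure the spread between libraries, which may be technical in part. Cells went from the sorter into Trizol, and no treatment is named.

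Library totals ran from 5475131 to 11340876 counts, so that 3 counts, taken as the detection floor, came to 0.259 to 0.507 CPM in a library. Floors and the intervals below cover counting error only. The 7 B cell markers (such as Cd79a and Ms4a1) summed to between 8769 and 20660 CPM in every library. Some libraries stood apart. Summed transcripts of 1457 olfactory and vomeronasal receptor genes reached 698 and 815 CPM in the PP HEL pos libraries 399 and Pool, against 53.6 to 491 CPM in the other 19 libraries. Libraries numbered 392 and 399 held no more than 0.844 CPM of 4 Y-linked genes in any tissue, and the other 15 libraries 95.8 to 164 CPM, while Xist was at 79.5 to 591 CPM throughout. Y-linked transcripts therefore set all HEL pos libraries but the pools apart from the BCL2 HEL pos libraries. The 15 libraries with Y-linked transcripts held Xist too, at 79.5 to 355 CPM. Whether they mix cells of both sexes was not tested.

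Axl lies on chromosome 7 from 25757273 to 25788705 on the minus strand (mm10, GENCODE M21), and no other annotated gene overlaps it. Mertk lies on chromosome 2 from 128698956 to 128802894, Tyro3 on chromosome 2 from 119797733 to 119818104 and Pros1 on chromosome 16 from 62854307 to 62929346, all on the plus strand. Gas6 lies on chromosome 8 from 13465374 to 13494490 on the minus strand, and its exons overlap those of Tmem255b. Whether reads were counted by strand is not given in the sources used here. Gas6 counts may therefore hold reads of that neighbour, or lack reads from the shared bases.

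The start-site regions of the 3 receptor genes are shown because only 1 of the 3 genes was expressed well above the floor in these cells. They run from 250 bases before to 30 bases from the start site (RefSeq, GRCm38.p6): chr7:25788704-25788983 on the minus strand for Axl, chr2:128698665-128698944 on the plus strand for Mertk and chr2:119799264-119799543 on the plus strand for Tyro3. Capitals mark GC boxes, GGGCGG on either strand.
Axl: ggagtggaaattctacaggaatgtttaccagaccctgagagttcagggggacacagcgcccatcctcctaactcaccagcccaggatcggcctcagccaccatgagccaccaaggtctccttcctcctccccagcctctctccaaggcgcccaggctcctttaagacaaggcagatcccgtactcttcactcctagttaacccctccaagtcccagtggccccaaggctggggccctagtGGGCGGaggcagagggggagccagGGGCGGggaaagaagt
Mertk: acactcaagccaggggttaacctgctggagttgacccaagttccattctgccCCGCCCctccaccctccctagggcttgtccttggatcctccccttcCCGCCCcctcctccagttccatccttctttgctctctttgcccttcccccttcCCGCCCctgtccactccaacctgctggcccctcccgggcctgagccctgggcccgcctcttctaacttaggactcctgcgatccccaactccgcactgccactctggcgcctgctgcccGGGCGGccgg
Tyro3: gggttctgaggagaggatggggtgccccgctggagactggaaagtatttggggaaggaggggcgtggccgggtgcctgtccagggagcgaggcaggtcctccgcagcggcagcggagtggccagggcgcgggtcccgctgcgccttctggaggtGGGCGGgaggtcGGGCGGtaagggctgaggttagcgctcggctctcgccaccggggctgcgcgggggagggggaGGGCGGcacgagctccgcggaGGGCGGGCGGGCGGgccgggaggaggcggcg

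The Axl region held 2 GC boxes, the Mertk region 4 and the Tyro3 region 6, and 34.7% of 32851 RefSeq regions of the same length held at least 1. Axl had the fewest CG pairs of the 5 genes, 6, which was also the median of all regions. Mertk had 11, Gas6 13, Pros1 19 and Tyro3 30. On both strands of the Axl, Mertk and Tyro3 regions there was no match to an AP-1 site (TGANTCA, in 7.46% of all regions), a CRE (TGACGTCA, 1.74%), an NBRE (AAAGGTCA, 1.45%), an Egr site (GCGNGGGCG, 5.3%), an E-box (CANNTG, 70.1%), a GAS element (TTCNNNGAA, 7.83%) or an ISRE core (GAAANNGAA, 8.06%). The Egr site and the GC box can overlap each other. These are matches of letters in 1 window per gene and do not show where a factor binds.

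Axl was at 214, 233 and 193 CPM in mLN HEL pos cells (Pool, 392 and 399), from 1701, 2286 and 1451 counts. In PP HEL pos cells it was at 41.8, 31.0 and 42.7 CPM in the same order. In spleen HEL pos cells it was at 1.37, 1.24 and 0.737 CPM, from 12, 8 and 5 counts. The 3 tissues did not overlap, with mLN highest and spleen only slightly above the floor.

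In BCL2 HEL pos cells the tissues lay closer together. Axl was at 82.3, 160 and 114 CPM in mLN (922, 926 and 950) and at 37.8, 85.9 and 77.4 CPM in PP. In the spleen it was at 3.32, 3.94 and 4.97 CPM. The spleen lay below both other tissues, whereas mLN and PP overlapped, since the highest PP library exceeded the lowest mLN library. Library 922 was the lowest of the 3 in every tissue.

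HEL neg cells had little Axl in any tissue. Their pools held 2.20 CPM in the spleen (16 counts, exact 95% Poisson interval 1.26 to 3.58 CPM), 2.40 CPM in mLN (15 counts, 1.34 to 3.96 CPM) and 0.335 CPM in PP (2 counts, 0.0406 to 1.21 CPM). The PP pool was under the floor, and the intervals of the spleen and mLN pools overlapped almost fully. Thus high Axl was seen in all 12 mLN and PP libraries labelled HEL pos or BCL2 HEL pos, and in no HEL neg library.

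**Figure D1:**
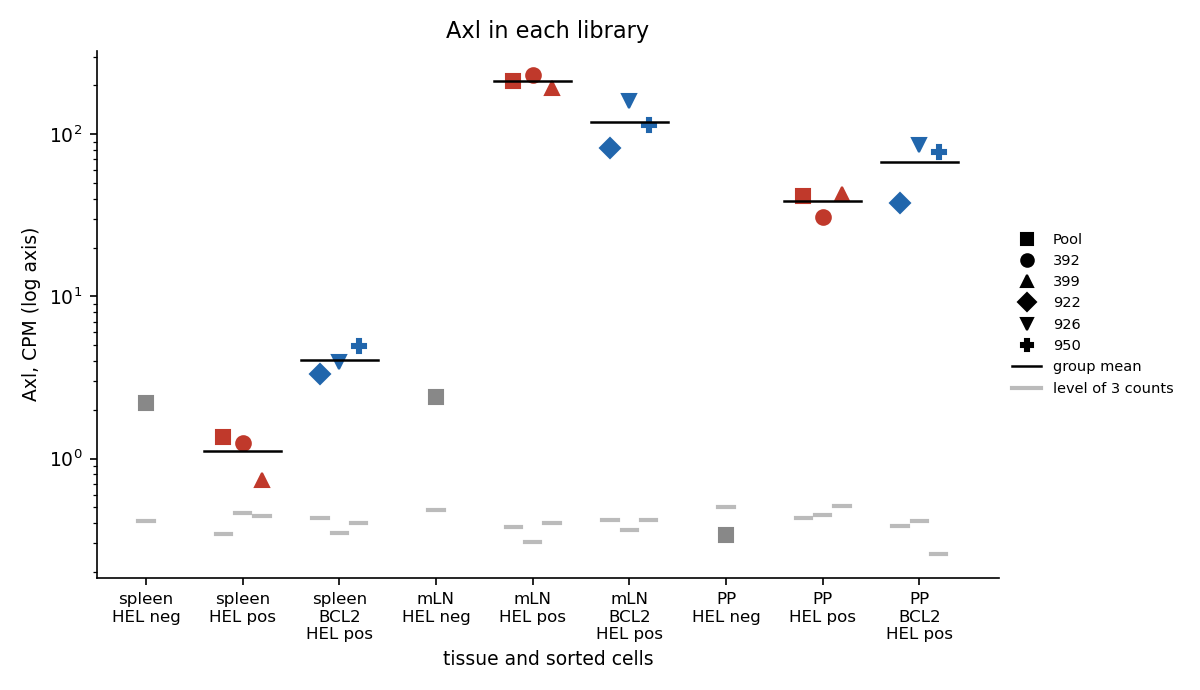
Axl in CPM (log axis) in each of the 21 libraries, by tissue and sorted cells; symbols give the library number, black lines group means and grey ticks the level of 3 counts. The 12 mLN and PP libraries other than HEL neg lie between 31.0 and 233 CPM and all other libraries at or below 4.97 CPM.

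Ordered by mean, Axl was highest in mLN HEL pos cells (213 ± 19.9 CPM, SD, n = 3), then in mLN BCL2 HEL pos cells (119 ± 39.0), PP BCL2 HEL pos cells (67.0 ± 25.7), PP HEL pos cells (38.5 ± 6.51), spleen BCL2 HEL pos cells (4.08 ± 0.835), the HEL neg pools of mLN and spleen, spleen HEL pos cells (1.11 ± 0.333) and the PP HEL neg pool. Only 2 pairs of neighbours among the groups of 3 libraries overlapped, mLN with PP BCL2 HEL pos cells and PP BCL2 HEL pos with PP HEL pos cells. The first pair differed by -0.83 ± 0.24 (PP minus mLN, log2 difference and SE, edgeR) and the second by 0.77 ± 0.25 (BCL2 HEL pos minus HEL pos). No p is given for Axl, because it was chosen for these levels.

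Per kilobase of its 5033 exonic bases, Axl was at 42.4 CPM in mLN HEL pos cells, above 94.3% of the 20892 genes of the table with a length in the annotation. The level was 23.6 CPM per kilobase in mLN BCL2 HEL pos cells (above 90.7% of genes), 13.3 in PP BCL2 HEL pos cells (84.7%) and 7.65 in PP HEL pos cells (78.7%). In spleen HEL pos cells it was 0.221, above 50.1% of genes. Bulk libraries cannot tell fewer Axl-expressing cells from less Axl RNA per cell, so these levels are averages over the sorted population.

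Between tissues, Axl differed by 7.54 ± 0.37 between mLN and spleen HEL pos cells (log2 difference and SE, edgeR) and by 5.11 ± 0.38 between PP and spleen. In BCL2 HEL pos cells the same differences were 4.85 ± 0.31 and 4.02 ± 0.31. PP was below mLN in both, by -2.43 ± 0.25 in HEL pos and -0.83 ± 0.24 in BCL2 HEL pos cells. The differences between tissues were thus smaller in BCL2 HEL pos cells, by -2.69 ± 0.52 for mLN against spleen and -1.09 ± 0.53 for PP against spleen, both relative to the same spleen libraries.

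The same levels can be given as ratios within libraries of 1 number, though the labels do not say whether these share mice. The mLN level was 157, 188 and 262 times the spleen level in HEL pos cells (Pool, 392 and 399) and 24.8, 40.6 and 22.9 times in BCL2 HEL pos cells (922, 926 and 950). The PP level was 30.6, 25.0 and 58.0 times the spleen level in HEL pos and 11.4, 21.8 and 15.6 times in BCL2 HEL pos cells. PP reached 19.5%, 13.3% and 22.1% of the mLN level in HEL pos cells and 45.9%, 53.8% and 68.0% in BCL2 HEL pos cells. None of these 3 ratios overlapped between the cell kinds, and the spleen counts of 5 to 12 in HEL pos cells limit the precision of their ratios. With 3 numbers per cell kind and Axl chosen for its levels, this is a description only.

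**Figure D2:**
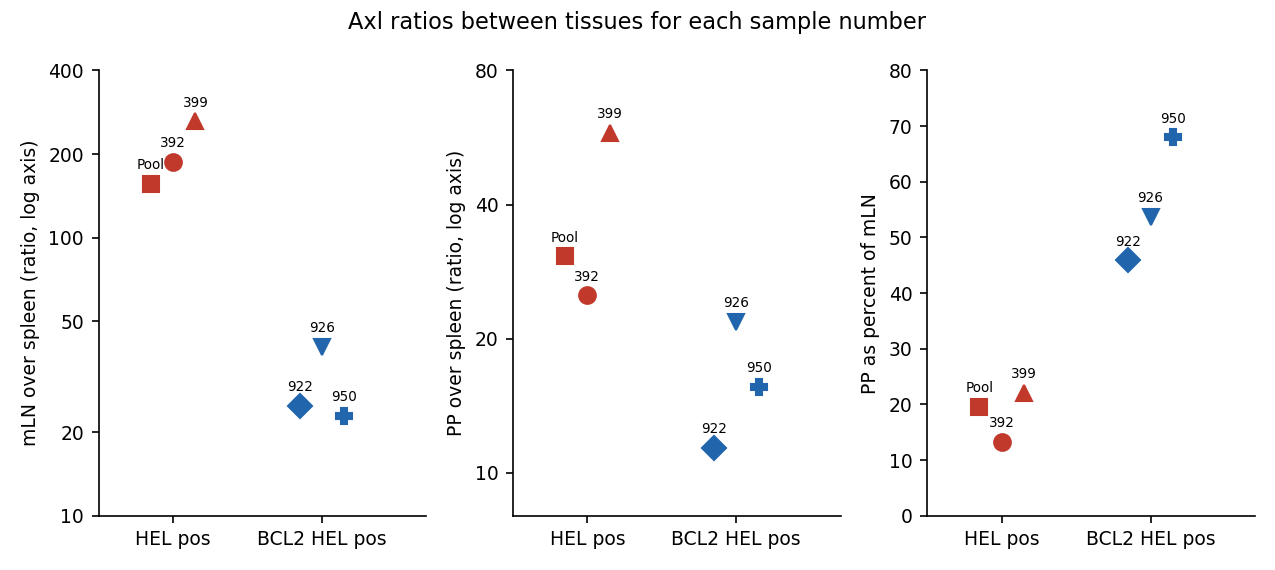
Axl ratios between tissues within libraries of 1 number: mLN over spleen and PP over spleen on log axes, and PP as a percent of mLN on a linear axis. Each symbol is 1 number; HEL pos numbers lie above BCL2 HEL pos numbers for both ratios to spleen (157 to 262 against 22.9 to 40.6 for mLN) and below them for PP as a percent of mLN.

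Within a tissue, BCL2 HEL pos cells held more Axl than HEL pos cells in the spleen (1.85 ± 0.46, log2 difference and SE, edgeR), less in mLN (-0.84 ± 0.24) and overlapping levels in PP (0.77 ± 0.25). The groups did not overlap in spleen or mLN, which only describes 3 libraries each of a gene chosen for its levels. The share of all genes separated in this way is not given here. Of the HEL pos libraries only the pools share the Y-linked transcripts of the BCL2 HEL pos libraries. The spleen pool, at 1.37 CPM, lay below all 3 BCL2 HEL pos libraries of that tissue, and the mLN pool, at 214 CPM, above all 3. The PP pool, at 41.8 CPM, lay between BCL2 HEL pos libraries 922 and 950. The part of sex, to which Y-linked transcripts point, in these differences was not tested.

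Against the HEL neg pool of the same tissue, the HEL pos pool held 0.62 times as much Axl in the spleen (exact 95% interval from the counts 0.268 to 1.40), 89.0 times as much in mLN (53.8 to 159) and 125 times as much in PP (34.2 to 1034). These ratios compare single pools, and their intervals cover counting error only. They are no test of Axl, which was chosen for its levels. A fit with tissue as a covariate, which averages over these unlike tissues, gave 4.88 ± 0.95 for HEL pos minus HEL neg cells and 4.82 ± 0.70 for BCL2 HEL pos minus HEL neg cells (log2 difference and SE, edgeR). The first was 2.96 without the mLN HEL neg pool, 6.53 without the spleen HEL neg pool and 2.16 by DESeq2, and the second 4.02, 6.09 and 3.54.

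Macrophages and dendritic cells are the usual sources of Axl, Mertk and Gas6, so their markers were read beside Axl. The 16 macrophage markers summed to 37.7 to 63.7 CPM in spleen HEL pos, 16.6 to 54.9 in mLN HEL pos and 36.9 to 50.0 in PP HEL pos libraries, and in BCL2 HEL pos libraries to 15.3 to 51.5, 18.7 to 31.7 and 39.0 to 56.7 CPM. The HEL neg pools were at 65.1, 27.7 and 26.1 CPM in spleen, mLN and PP. Of 11 tested between mLN and spleen HEL pos cells, Cd5l was called higher and C1qa, C1qc, Emr1, Lyz2 and Spic lower. Between PP and spleen HEL pos cells, Cd5l was called higher and Emr1 and Spic lower. In BCL2 HEL pos cells 0 of 11 were called between mLN and spleen, and between PP and spleen only Cd5l, which was higher. The defining gene Emr1 was at 0.707 ± 0.759 CPM in mLN and 7.10 ± 2.38 in spleen HEL pos cells (SD, n = 3), and Csf1r at 1.46 ± 1.40 and 2.96 ± 1.09. Siglec1 was listed at 0 in all spleen HEL pos libraries and Vsig4 in all BCL2 HEL pos libraries of spleen, mLN and PP. Cd5l and Cd68 had higher means in mLN than in spleen HEL pos cells. Cd5l was at 10.4 ± 10.1 CPM in mLN and 18.5 ± 3.33 in PP against 1.04 ± 0.522 in spleen HEL pos cells. Cd68 had the highest mean of the 9 groups in mLN HEL pos cells, 10.5 ± 2.35 CPM, against 5.61 ± 1.58 in spleen and 5.45 ± 2.70 in PP HEL pos cells, and was not called.

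Dendritic cell markers summed to 9.58 to 19.4 CPM in spleen, 6.54 to 24.3 in mLN and 11.0 to 25.3 in PP HEL pos libraries, to 4.24 to 13.7 in BCL2 HEL pos libraries, and to 32.7 to 64.0 in the HEL neg pools, which had the lowest Axl of their tissue in mLN and PP. B cell markers summed to 19790 to 20660 CPM in spleen, 8769 to 9491 in mLN and 11060 to 12850 in PP HEL pos libraries. All 7 tested were called lower in mLN and 6 of 7 in PP than in spleen HEL pos cells, and 3 and 2 of 7 in BCL2 HEL pos cells. Granulocyte markers were at 46.4 to 189 CPM in spleen HEL pos libraries, 69.5 CPM in the spleen HEL neg pool and at most 1.04 CPM in all others. T and NK cell markers were at 301 to 363 CPM in spleen, 120 to 209 in mLN and 173 to 195 in PP HEL pos libraries, most of it Cd2 (327 ± 38.9, 123 ± 15.3 and 160 ± 27.4 CPM), and erythroid and platelet markers at 43.3 to 92.6, 0 to 3.53 and 5.04 to 11.9 CPM. Stromal and endothelial markers, nearly all of it Pecam1, were at 224 to 283, 115 to 129 and 159 to 166 CPM.

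Some single markers of other cell types were, like Axl, higher in mLN than in spleen HEL pos cells. Of 9 T and NK cell markers tested, Cd3d, Cd3e and Cd8a were called higher and Cd2 lower in mLN than in spleen HEL pos cells. Cd3e, a chain of the T cell receptor complex, was at 7.27 ± 4.60 CPM in mLN and 0.539 ± 0.391 in spleen HEL pos cells, Cd3d at 7.83 ± 5.11 and 2.37 ± 0.731, and Cd8a at 5.81 ± 3.98 and 0.595 ± 0.168. Cd3g (6.03 ± 2.95) and Cd8b1 (7.35 ± 4.19) were not called there, but they and Cd3d had the highest mean of the 9 groups in mLN HEL pos cells. The dendritic cell marker Zbtb46 (2.81 ± 1.54 against 0.760 ± 0.549 CPM) and the epithelial marker Epcam (31.9 ± 4.30 against 12.2 ± 9.80) were also called higher in mLN than in spleen HEL pos cells. In PP, 8 of 9 epithelial markers were called higher than in spleen HEL pos cells. In BCL2 HEL pos cells, of 9 T and NK cell markers Klrb1c was called higher and Cd2 lower than in spleen, both in mLN and in PP. Klrb1c was at 5.96 ± 1.12 CPM in mLN, 3.74 ± 1.12 in PP and 0.337 ± 0.583 in spleen BCL2 HEL pos cells. There too 7 of 9 epithelial markers were called higher in PP than in spleen.

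Markers also differed between BCL2 HEL pos and HEL pos cells. In mLN, where Axl was lower in BCL2 HEL pos cells, 6 of 9 T and NK cell markers (Cd3d, Cd3e, Cd3g, Cd8a, Cd8b1 and Nkg7) and Epcam were called lower and 5 of 7 B cell markers higher. In the spleen, 4 of 4 granulocyte markers and 2 of 7 B cell markers were called lower and Cd3e higher. In PP, 5 of 9 epithelial markers were called lower and the B cell marker Cd22 higher. Between BCL2 HEL pos and HEL neg cells, 6 of 9 T and NK cell, 7 of 8 epithelial and 3 of 5 dendritic cell markers were called lower and 0 higher. The part of other cell types in the Axl levels was not tested.

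Mertk, the receptor best known from macrophages, gave 37 counts in all. The most were 14 in PP HEL pos library 399 and 8 in the PP HEL pos pool, the only libraries above the floor. All mLN libraries had at most 1 count, and 9 of 21 libraries had none. The PP HEL pos group averaged 1.22 ± 1.11 CPM (SD, n = 3), with library 392 of that group at 1 count. Both libraries with Mertk above the floor are those with the most olfactory and vomeronasal receptor transcripts, 698 and 815 CPM, while PP HEL pos library 392 had 87.0 CPM. The part of that background in the Mertk counts was not tested.

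Tyro3, the receptor best known from the nervous system, gave 13 counts in all and none in 17 of 21 libraries. It had 5 counts in the spleen HEL neg pool, 4 in PP HEL pos library 392, 3 in the spleen HEL pos pool and 1 in spleen BCL2 HEL pos library 926. No mLN library had a count, and 3 counts over the 3 mLN HEL pos libraries would be 0.119 CPM.

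Gas6, the ligand of all 3 receptors, gave 28 counts. It had 10 in the PP HEL neg pool (1.68 CPM, exact 95% Poisson interval 0.804 to 3.08) and 7 in PP HEL pos library 392, and no other library exceeded 3. The 9 epithelial markers in the table summed to 1231 CPM in the PP HEL neg pool. In PP HEL pos cells they summed to 230 CPM in library 392, to 726 in the pool, which had 1 Gas6 count, and to 1085 in library 399, which had none, so that within this group the library with most Gas6 had the lowest sum. They came to 14.2 to 149 CPM in PP BCL2 HEL pos libraries, and at most 35.0 CPM in spleen and mLN libraries. All 9 had counts in each PP group. Their part in the Gas6 counts was not tested.

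Pros1, which encodes protein S and activates Mertk and Tyro3, had the most counts of these 4 genes, 73. It had 22 counts in spleen HEL pos library 399 and none in the other 2 spleen HEL pos libraries, so that 1 library made the group mean of 1.08 ± 1.87 CPM (SD, n = 3). Another 6 libraries were above the floor, with 5 to 8 counts. Spleen HEL pos library 399 also had 477 CPM of olfactory and vomeronasal receptor transcripts, against 106 and 246 CPM in libraries 392 and Pool of that group. The part of that background in the Pros1 counts was not tested.

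**Figure D3:**
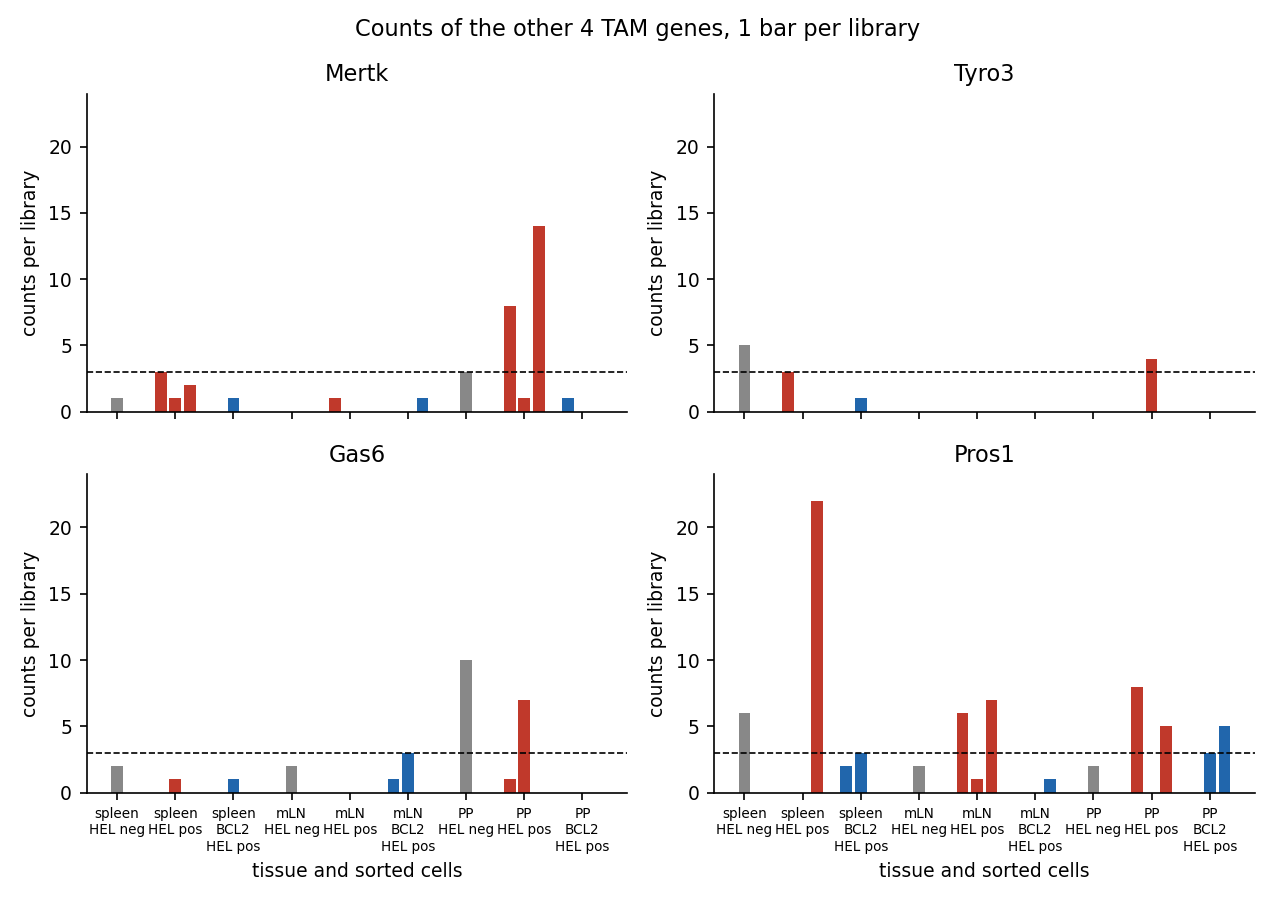
Counts of Mertk, Tyro3, Gas6 and Pros1 in each library (1 bar per library, on a linear axis from 0), by tissue and sorted cells; the dashed line marks the floor of 3 counts. Most bars lie at or under the line, and the highest are Pros1 at 22 in 1 spleen HEL pos library and Mertk at 14 in 1 PP HEL pos library.

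None of the 4 genes passed the filter on low counts in the fits, so none was tested there. Without the filter, edgeR called 0 of 56 tests (4 genes in 14 comparisons), 8 had an unadjusted p under 0.05, and the smallest adjusted p was 0.0882, for Gas6 in BCL2 HEL pos against HEL neg cells. Tyro3 had no counts on either side between PP and mLN BCL2 HEL pos cells, or between BCL2 HEL pos and HEL pos cells of mLN. It could not be called there. The share of all genes called in these unfiltered fits is not given here, so the counts of tests are no result about the 4 genes. None of the 4 was in the set kept for DESeq2. Per kilobase, Axl in mLN HEL pos cells (42.4 CPM) stood beside 0.146 for Pros1 and 0.00967 for Mertk, with Tyro3 and Gas6 listed at 0. In the PP HEL neg pool Gas6 (0.658 CPM per kilobase), Mertk (0.116) and Pros1 (0.082) were above Axl (0.0666). Pros1 (0.264) was also above Axl (0.221) in spleen HEL pos cells, where all its counts came from library 399. In 2 of 21 libraries the other 4 genes together had more counts than Axl.

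The wider pathway was read from 75 genes in 6 lists: carboxylation and processing of TAM ligands, receptor shedding, signalling and feedback, other phosphatidylserine receptors and bridging proteins, phosphatidylserine scramblases and flippases, and the engulfment machinery. Of these, 55 were tested in the fit without HEL neg libraries. A call is an adjusted p under 0.05 (edgeR quasi-likelihood, Benjamini-Hochberg over all tested genes), and differences are log2 with SE. The comparisons of mLN and PP with spleen share the spleen libraries.

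Between mLN and spleen HEL pos cells, 3 of 55 pathway genes rose and 14 fell, where 12.9% of all 11419 genes were called higher and 11.5% lower. Their median difference was -0.16, and that of all genes -0.01. Among the shedding genes, the iRhom genes Rhbdf2 and Rhbdf1, which bring ADAM17 to the cell surface, fell. Rhbdf2 was at 37.4 ± 1.86 CPM in mLN and 138 ± 24.8 in spleen (-1.88 ± 0.21, adjusted p = 1.41e-06), and Rhbdf1 at 0.662 ± 0.311 and 7.37 ± 5.02 CPM (-3.48 ± 0.63, adjusted p = 0.000308). The proteases themselves were not called, with Adam10 at 170 ± 12.0 and 147 ± 28.3 CPM and Adam17 at 161 ± 3.94 and 143 ± 12.5 CPM.

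Of 14 tested phosphatidylserine receptors and bridging proteins, 3 rose and 6 fell in mLN. Havcr1, which encodes the phosphatidylserine receptor TIM-1, rose from 2.91 ± 2.94 to 57.7 ± 15.1 CPM (4.32 ± 0.73, adjusted p = 0.000146). Timd2, a relative of it, and Itgav, the αv integrin chain that binds the bridging protein MFG-E8, also rose, by 3.73 ± 0.88 and 0.94 ± 0.22; these were named after their values were seen. Cd36, a scavenger receptor, fell from 483 ± 96.0 to 230 ± 71.7 CPM (-1.07 ± 0.22). Anxa5, which binds phosphatidylserine, fell by 0.66 ± 0.14 and Itgb3, the β3 partner of αv, by 1.89 ± 0.43. The other falls, also outside the naming rule given below, were Lgals3, C1qa and C1qc. Lgals3, which encodes a bridging lectin, fell from 7.95 ± 1.67 to 1.79 ± 0.527 CPM. The complement genes C1qa and C1qc fell from 1.77 ± 1.94 to 0.0838 ± 0.145 and from 3.58 ± 3.71 to 0.0419 ± 0.0726 CPM. C1qa and C1qc are also among the macrophage markers, 5 of which fell here, and the part of macrophages was not tested. Of 14 signalling genes Pik3r1 and Plcg2 fell (-0.71 ± 0.16 and -0.44 ± 0.13), and of 10 engulfment genes Rhog, Elmo1 and Dock2 (-0.70 ± 0.16, -0.52 ± 0.14 and -0.52 ± 0.15). Of 9 scramblases and flippases the flippase gene Atp8a1 fell (-0.80 ± 0.15), and 0 of 4 ligand maturation genes was called. Plcg2 was called in 23 of 25 alternative fits, not without library 399 of spleen or of mLN, Dock2 in 23, not without the spleen pool, and C1qa in 21 of 24, not without library 399 of either tissue or mLN library 392.

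**Figure D4:**
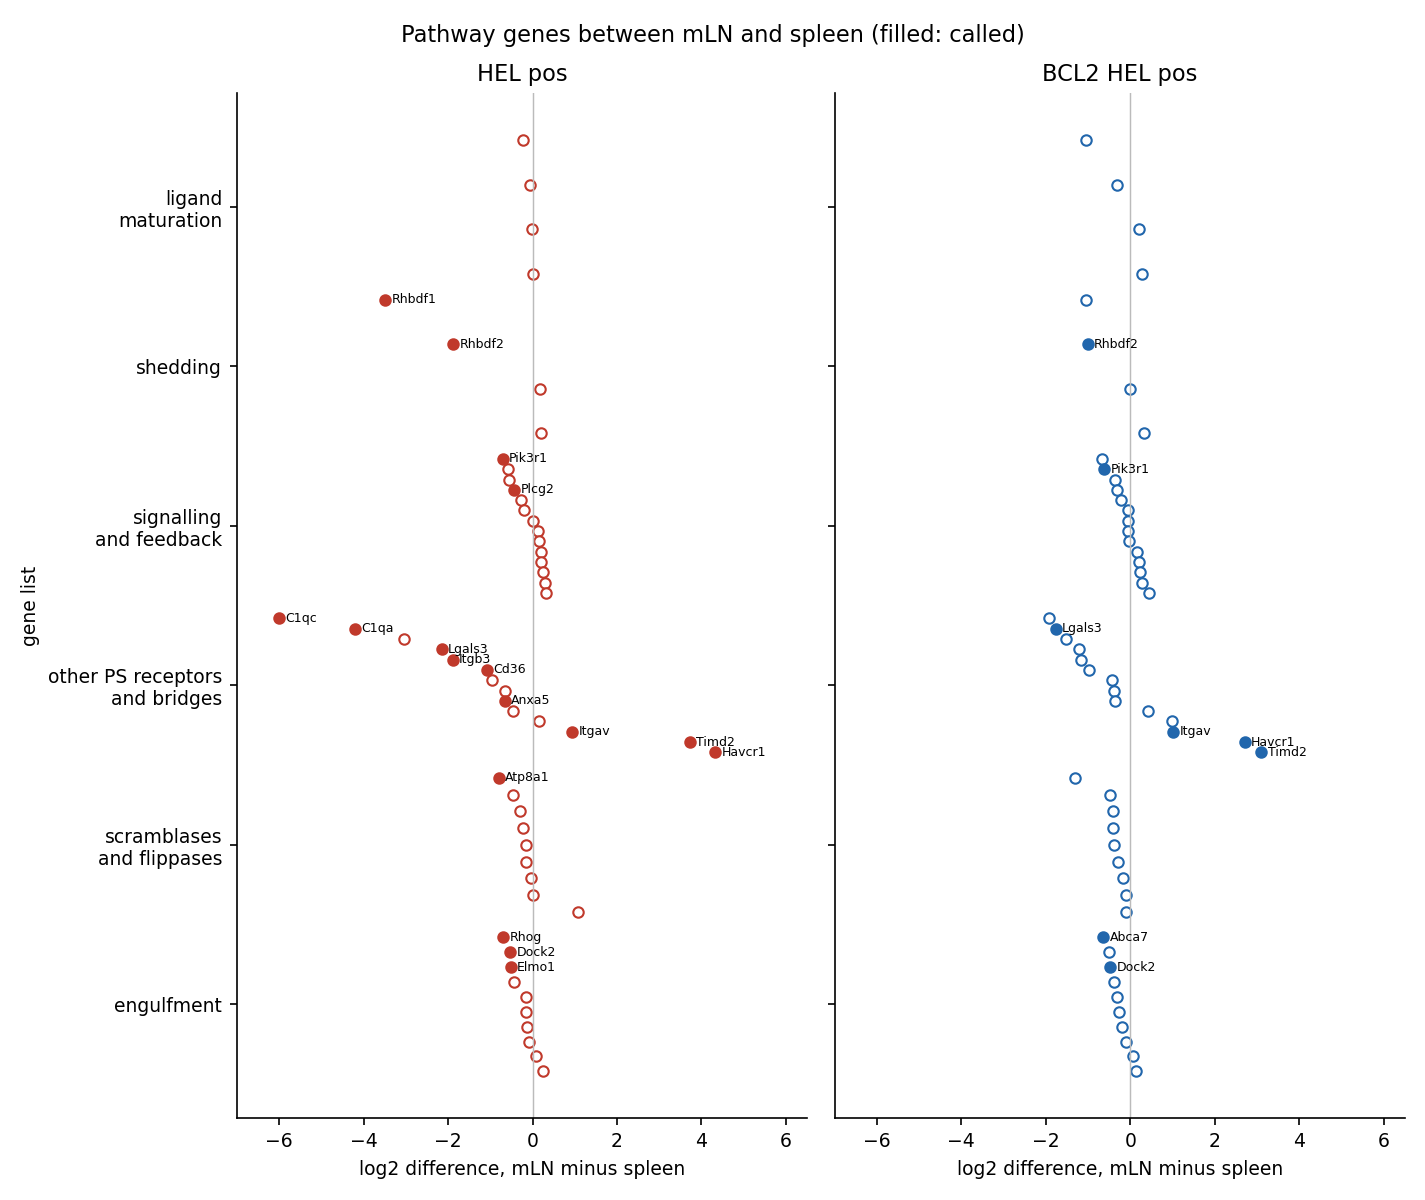
Log2 difference between mLN and spleen for the 55 tested pathway genes, by list (rows; PS, phosphatidylserine), in HEL pos (left) and BCL2 HEL pos cells (right); filled points with names are called at an adjusted p under 0.05 and open points are not. In HEL pos cells 3 points are called higher and 14 lower, and in BCL2 HEL pos cells 3 and 5.

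Between PP and spleen HEL pos cells, 6 of 55 pathway genes rose and 9 fell, where 7.94% of all genes were called higher and 7.43% lower (medians -0.15 and 0.02). Rhbdf2 and Rhbdf1 fell here too, by 1.28 ± 0.21 and 2.52 ± 0.60. Cd300lf, a phosphatidylserine receptor of the CD300 family, rose from 3.90 ± 2.49 to 21.0 ± 8.68 CPM (2.43 ± 0.46, adjusted p = 0.00113), and Itgav by 0.94 ± 0.22. Cd36 and Anxa5 fell by 1.08 ± 0.22 and 0.63 ± 0.14. In the signalling list Ifnar1, the interferon receptor chain that pairs with Axl, rose by 0.52 ± 0.13, Socs3 by 1.50 ± 0.42 and the adaptor gene Grb2 by 0.60 ± 0.17, while Plcg2 fell by 0.39 ± 0.13. The flippase gene Atp8a1 and the scramblase gene Ano6 fell by 0.65 ± 0.15 and 0.67 ± 0.21, and the adaptor gene Crkl by 0.52 ± 0.15. Only 4 of the 55 were called without PP libraries 399 and Pool, and 5 with only the compared libraries in the fit, and Plcg2 was called in 8 of 25 alternative fits. Ano6 was called in 18 fits, not without the pool or library 399 of either tissue, and Socs3 in 20, not without the PP pool or spleen library 392 or 399. Crkl was called in 21, not without the PP pool, Grb2 in 22, not without the spleen pool or PP library 392, and Rhbdf1 in 23, not without the spleen pool.

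In BCL2 HEL pos cells fewer pathway genes were called, and so were fewer of all genes. Between mLN and spleen 3 of 55 rose and 5 fell, where 5.77% of all genes were called higher and 4.23% lower (medians -0.30 and -0.02). Itgav rose from 17.2 ± 0.564 to 35.0 ± 6.15 CPM (1.02 ± 0.22) and Havcr1 from 1.60 ± 1.94 to 10.2 ± 6.95 CPM (2.71 ± 0.78). Timd2 rose by 3.11 ± 0.98, in 10 of 24 alternative fits. Rhbdf2 fell by 1.00 ± 0.21, Pik3r1 by 0.62 ± 0.16, Lgals3 by 1.77 ± 0.49, and Abca7 and Dock2 of the engulfment list by 0.63 ± 0.18 and 0.48 ± 0.14. Havcr1 was called in 21 of 25 fits, not by DESeq2 and not without library 926 of either tissue or spleen library 950. Dock2 was called in 14 fits and was lost without each of the 6 compared libraries in turn. Lgals3 and Pik3r1 were called in 21 and Abca7 in 20, and all of them were lost without library 926 of either tissue. The count of 8 fell to 2 without spleen library 926.

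Between PP and spleen BCL2 HEL pos cells 2 of 55 rose and 3 fell, where 4.81% of all genes were called higher and 2.53% lower (medians -0.16 and -0.02). Cd300lf rose from 4.09 ± 1.97 to 46.3 ± 9.39 CPM (3.50 ± 0.47, adjusted p = 6.94e-05) and Itgav from 17.2 ± 0.564 to 42.4 ± 8.47 CPM (1.29 ± 0.22). Cd36, Rhbdf2 and Pik3r1 fell by 0.84 ± 0.23, 0.85 ± 0.21 and 0.59 ± 0.16. Cd36 was called in 20 of 25 fits and Pik3r1 in 19, and both were lost without each of the 3 spleen libraries in turn. Rhbdf2 was lost without PP library 950. The count of 5 fell to 3 without spleen library 922.

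BCL2 HEL pos cells differed from HEL pos cells in a few pathway genes in every tissue. In the spleen 6 of 55 rose and 2 fell, where 4.55% of all genes were called higher and 4.82% lower. In mLN 6 rose and 2 fell, with 5.78% and 5.9% of all genes, and in PP 7 rose and 2 fell, with 5.33% and 4.74%. Medians were 0.12, 0.12 and 0.11, and those of all genes within 0.01 of 0 in spleen and mLN and -0.01 in PP. Cd36 fell in each tissue, by 2.73 ± 0.24 in spleen (from 483 ± 96.0 to 72.0 ± 8.03 CPM, adjusted p = 3.37e-07), 1.24 ± 0.23 in mLN and 2.49 ± 0.24 in PP. Vkorc1, the vitamin K reductase that serves the carboxylation of Gas6 and protein S, rose by 0.87 ± 0.17, 1.13 ± 0.17 and 0.66 ± 0.17, from 20.5 to 23.3 CPM in the 3 HEL pos group means to 33.1 to 48.6 CPM. Socs3, a feedback inhibitor of cytokine receptors, rose by 1.91 ± 0.42, 1.84 ± 0.42 and 1.47 ± 0.39, and Anxa5 by 0.63 ± 0.14, 0.91 ± 0.14 and 0.85 ± 0.14.

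Itgav rose in mLN (0.65 ± 0.21) and PP (0.93 ± 0.21). Havcr1 fell by 2.47 ± 0.64 and Rhbdf1 rose by 2.48 ± 0.64 in mLN. Nr1h2, which encodes the oxysterol receptor LXRβ, rose in spleen (0.41 ± 0.11) and PP (0.48 ± 0.11), Abca1, an LXR target that exports cholesterol, in spleen (1.15 ± 0.24), and the kinase gene Ptk2 in spleen (1.23 ± 0.38). Elmo1 rose in mLN (0.47 ± 0.14), and Crkl and Rac1 in PP (0.49 ± 0.15 and 0.37 ± 0.12). The flippase genes Atp8a1 in spleen (-0.56 ± 0.15) and Atp11a in PP were lower, Atp11a with 0 counts in all 3 PP BCL2 HEL pos libraries and 1.31 ± 1.11 CPM in PP HEL pos cells. Havcr1 in mLN was called in 20 of 24 alternative fits, not by DESeq2 and not without mLN library 392, 922 or 950, and Rhbdf1 in 22, not without 392 or 922. Elmo1 was called in 19, Nr1h2 in spleen and Crkl in 17 each, Socs3 in PP in 20, and Vkorc1 in PP and Atp8a1 in spleen in 21 each. Ptk2 was called in 12, Itgav in mLN and Atp11a in PP in 8 each (of 23 for Atp11a), and Rac1 in 4 of 24. The PP count of 9 was 5 without PP HEL pos library 399, 15 without library 392 and 3 without libraries 399 and Pool. The mLN count of 8 was 4 without mLN HEL pos library 392, and the spleen count of 8 was 5 without spleen HEL pos library 392. These comparisons carry the differences in Y-linked transcripts and in markers of other cell types given above (6 of 9 T and NK cell markers lower in mLN, 4 of 4 granulocyte markers lower in spleen, 5 of 9 epithelial markers lower in PP), and their part was not tested.

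Between HEL pos and HEL neg cells, with tissue as a covariate, 1 of 53 tested pathway genes rose and 8 fell, where 3.46% of 11406 genes were called higher and 5.22% lower (medians -0.24 and 0.02). Cd36 rose by 1.89 ± 0.25 (adjusted p = 0.000449). Rhbdf1 fell by 3.17 ± 0.58, Itgb3 by 1.93 ± 0.34, Cd300lf by 1.56 ± 0.35, Ptk2 by 1.64 ± 0.33, Socs3 by 1.61 ± 0.36, and the engulfment genes Elmo1, Dock2 and Abca1 by 0.69 ± 0.14, 0.49 ± 0.13 and 0.79 ± 0.22. All 8 falls were lost without the mLN and also without the PP HEL neg pool. Dock2 was called in 11 and Abca1 in 8 of 16 alternative fits, and both were lost without the spleen HEL neg pool too. The count of 9 fell to 1 without the mLN HEL neg pool. Dendritic cell markers were higher in the HEL neg pools, as given above, and 3 of 6 tested were called lower in HEL pos cells; their part in these differences was not tested.

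The genes most like Axl were those whose log2 group means followed it most closely over the 9 groups, by the root mean square difference after each gene was centred on its own mean, among 13740 genes kept over all 21 libraries. The chemokine gene Ccl4 was nearest, at 0.79, against a median of 2.96 over all genes. Ccl3, a chemokine gene beside it, followed at 1.15, then Tnfsf4 (OX40 ligand) at 1.35, Mreg (melanoregulin) at 1.40, Nrgn (neurogranin) at 1.43, Fibcd1 at 1.44, Lzts2 at 1.45 and Lipg (endothelial lipase) at 1.46. This is a description over 9 groups that share libraries and tissues, and Axl had been chosen for this pattern.

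Ccl4 was at 169 ± 36.4 CPM in mLN HEL pos, 33.7 ± 15.4 in PP HEL pos and 0.848 ± 1.15 in spleen HEL pos cells. In BCL2 HEL pos cells it was at 29.5 ± 17.0 in mLN and 38.5 ± 9.38 in PP, so that it had no excess in mLN over PP, unlike the Axl means. Mreg was at 334 ± 14.4 CPM in mLN HEL pos, 138 ± 27.1 in PP HEL pos and 16.6 ± 4.68 in spleen HEL pos cells, and at 187 ± 14.9, 157 ± 53.1 and 26.6 ± 5.20 in BCL2 HEL pos cells of mLN, PP and spleen. Tnfsf4 was listed at 0 in all 3 HEL neg pools and at 28.3 ± 1.33 CPM in mLN HEL pos cells. Without the HEL neg pools, over 6 groups, 4 of these 8 genes were again among the 8 nearest, and 5 with a prior count of 0.5 in place of 2. Mertk, Gas6 and Pros1 stood at 3.17, 3.49 and 3.08 and ranked 10698, 12731 and 9540 of the 13740 genes, and Tyro3 was not kept by the filter. Over the 6 groups Mertk, Gas6 and Pros1 ranked 11385, 5655 and 7756. Their ranks rest on only 37, 28 and 73 counts in all libraries.

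**Figure D5:**
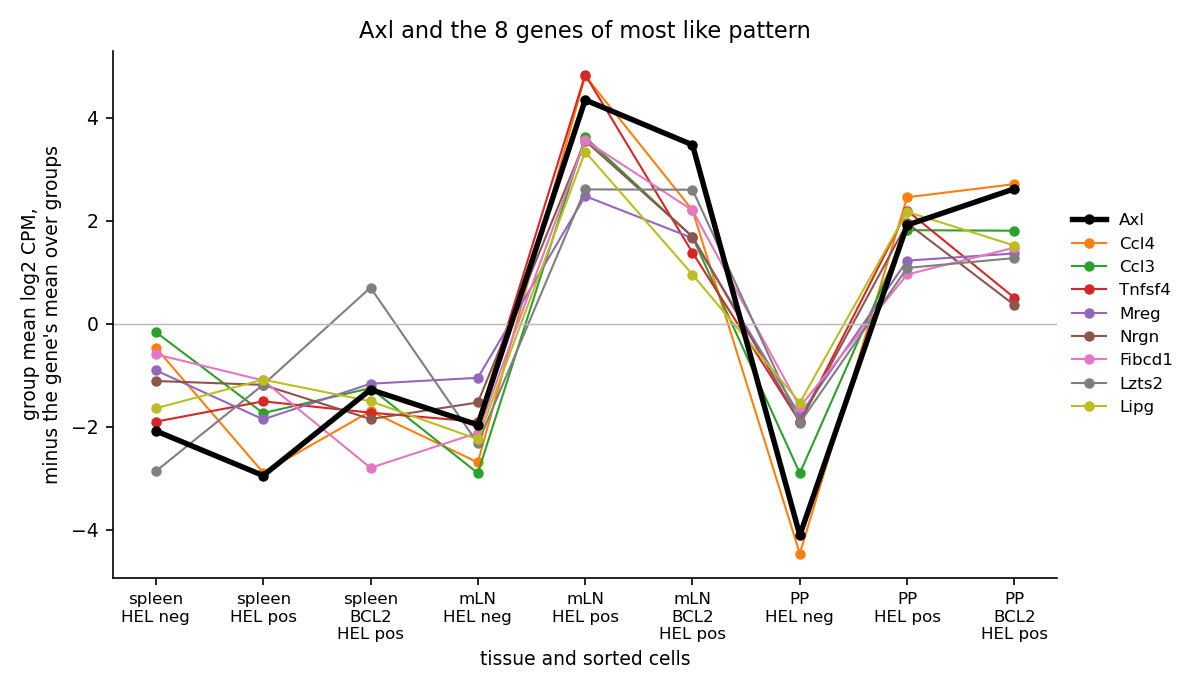
Group means of log2 CPM for Axl (thick black line) and the 8 genes of most like pattern, each minus its own mean over the 9 groups of tissue and sorted cells. All 9 lines are highest in mLN HEL pos cells and negative in all 3 HEL neg pools.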

How the data were processed

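RNA of 21 libraries of sorted mouse B cells was sequenced with single-end reads, per the labels. They name 2 kits, Nextera XT and TruSeq. The authors deposited whole-number counts for each gene and library. The tools named in the submitters' processing notes are HTSeq, STAR and DESeq2, with the build mm10. The sources used here do not give their versions or roles, or whether strand was used. Of 23337 symbols, 20892 matched 1 GENCODE M21 gene, which gave positions and exon lengths.

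Genes were filtered with filterByExpr, libraries scaled with TMM and groups compared by edgeR 4.0.16 (R 4.3.3, quasi-likelihood, two-sided), with Benjamini-Hochberg adjustment over all tested genes. The HEL pos and BCL2 HEL pos groups were fitted together (18 libraries, 11419 genes, 12 residual degrees of freedom). Each was fitted with the HEL neg pools and tissue as a covariate (12 libraries, 11406 and 10987 genes, 8 residual degrees of freedom), which assumes that the single pools vary like the other libraries. Totals of 5475131 to 11340876 counts set the precision.

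The members and the gene lists were chosen with earlier results of these data known. Named were the 5 members, at most 4 called genes per list and comparison by smallest p, and the 8 genes most like Axl; genes outside this rule are marked. Alternatives tried were DESeq2 1.42.0, its size factors in edgeR, no filter, single libraries left out, only the compared libraries, the library number as a block, and fits without pooled or divergent libraries. The tests were checked on simulated data with 200 changed genes. For mLN against spleen HEL pos cells, edgeR recovered 11.9% of 1.5-fold, 68.7% of 2-fold and 100% of 4-fold changes. It made 127 calls, 7 of them false, and DESeq2 150, 19 of them false. For HEL pos against HEL neg cells edgeR recovered 34.3%, 86.6% and 100%, with 11 false among 158 calls. Small changes can therefore go uncalled. The simulation gave every gene the same spread, close to that of the 18-library fit and below that of the HEL pos and HEL neg fit. It had no tissue effect and changed only genes of higher counts. Its rates may thus be too favourable, above all for genes near the floor and for the HEL neg comparison. A gene of the B cell marker list is not reported here and was left out of its sums and counts.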

Additional observations from a re-analysis of the deposited data

Results flagged for a closer look

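Axl differed between BCL2 HEL pos and HEL pos cells in opposite directions in 2 tissues. In the spleen all 3 BCL2 HEL pos libraries were above all 3 HEL pos libraries (1.85 ± 0.46, log2 difference and SE, edgeR), and in mLN all 3 were below (-0.838 ± 0.24). This difference between tissues was not tested, because Axl was chosen for its levels.

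The Cd36 difference between mLN and spleen differed between BCL2 HEL pos and HEL pos cells, by an interaction of 1.49 ± 0.32 (log2 and SE, adjusted p = 0.0358, edgeR quasi-likelihood test over all genes). It was -1.07 ± 0.22 in HEL pos cells (mLN minus spleen) and 0.42 ± 0.23 in BCL2 HEL pos cells, where it was not called (adjusted p = 0.284). In HEL pos cells it was at 483 ± 96.0 CPM in spleen and 230 ± 71.7 in mLN, and in BCL2 HEL pos cells at 72.0 ± 8.03 and 97.0 ± 19.1 (SD, n = 3).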

How the results depend on the processing

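No direction of an Axl difference changed under any alternative. With libraries 399 and Pool of PP HEL pos cells left out, Axl differed by 4.76 between PP and spleen and by -2.77 between PP and mLN HEL pos cells. DESeq2 gave 2.16 for HEL pos and 3.54 for BCL2 HEL pos minus HEL neg cells, and leaving out 1 library 2.96 to 6.53 and 4.02 to 6.09, lowest without the mLN and highest without the spleen HEL neg pool. Counts of called pathway genes moved more. PP against spleen HEL pos gave 5 with only the compared libraries and 4 without PP libraries 399 and Pool (11 to 16 with 1 library left out). In BCL2 HEL pos cells, leaving out 1 library gave 2 to 10 for mLN and 3 to 6 for PP against spleen, and PP against spleen gave 8 with no low-count filter. BCL2 HEL pos against HEL pos gave 5 to 10 in spleen, 4 to 9 in mLN and 5 to 15 in PP with 1 library left out, 13 in mLN and 4 in PP with only the compared libraries, and in PP 15 with no filter and 3 without libraries 399 and Pool. HEL pos against HEL neg gave 1 to 10. With the number as a replicate block, counts were 13 for mLN and 8 for PP against spleen in BCL2 HEL pos cells and 2 for HEL pos against HEL neg, where Cd36 and Itgb3 were called and the other 7 genes were not. Same-number libraries deviated together in 13 of 18 pairs (correlation over 0.1, range 0.0204 to 0.308) and were each other's best match in 17 of 18, a hint from the data and not from the labels. The cause of these changes was not tested. With 1 pool per tissue, HEL neg levels rest on 2 to 16 Axl counts.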
